A study of Mus musculus with 35 samples.

Results

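Maternal transcripts that were abundant in the mouse zygote and largely gone by the early 2-cell (2C) stage were examined gene by gene. The 127 genes were chosen by their measured values out of 24480 genes in the count table. A gene was included when its mean level was at least 50 CPM (a gene's counts scaled to a common library total, with the injected Kdm5b message left out) in control zygotes and its mean in control 2C samples was at most 25% of that. Tacc3, Txnip and symbols starting with Rpl, Rps, Psm or Nduf were left out by name, which removed 12 of 139 genes that met both limits. Of the 3714 remaining genes at 50 CPM or more, the members made up 3.42%, and the other 3587 abundant genes serve for comparison below.

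The fully grown oocyte is transcriptionally silent and hands the embryo a store of messenger RNA. This store is read and then dismantled, in a first wave during meiotic maturation and in further waves around fertilisation and genome activation, by shortening of the poly(A) tail, decapping and exonucleolytic decay. How fast a given message is lost depends on its codons, its 3′ untranslated region (UTR) and the proteins bound there, and messages that are kept under translational control often carry cytoplasmic polyadenylation elements near their 3′ end.

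The study asked whether removing broad H3K4me3 by overexpressing the demethylase KDM5B alters gene expression before embryonic genome activation, and measured total RNA of 35 single or pooled samples with a strand-specific, full-length kit. All embryos were wild-type C57BL/6NRj, came from superovulated females, and were injected into the cytoplasm with either nuclease-free water or Kdm5b-yfp mRNA at about 1150 ng/µl. Zygotes (10 water, 10 Kdm5b, each a single embryo) were collected 17 h after ovulation and 5 to 6 h after injection. The 2C groups (9 water, 6 Kdm5b) were collected 5.5 to 8 h after division. Several limits of the groups bear on every stage comparison. The 2C embryos grew from cryopreserved and thawed zygotes, and their libraries were prepared on another day than the zygote libraries, so that stage, thawing and day of preparation cannot be told apart. The Kdm5b-injected 2C embryos received the mRNA only after they had divided, so they were not exposed to KDM5B as zygotes. Water, not another mRNA, was the control. In 3 control and 1 Kdm5b 2C samples, surviving single blastomeres of 2 or 3 embryos were pooled.

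The total count per sample ranged from 8705584 to 17797581 over the 4 groups. Kdm5b itself took 2.30 to 10.4% of the counts in Kdm5b zygotes and 8.27 to 15.8% in Kdm5b 2C samples, against at most 0.0189% in controls. All 12 oocyte and zygote marker genes were detected in every group, with a summed level of 5576 to 8153 CPM in zygotes and 2995 to 5214 CPM in 2C samples. Of 13 markers of 2C embryos in the table, the summed level was 9.25 to 55.7 CPM in zygotes and 196 to 951 CPM in 2C samples. Summed markers of cumulus and granulosa cells were low throughout (16 genes, 22.5 to 68.3 CPM), and 6 sperm markers reached at most 14.1 CPM.

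The most abundant member was Hsp90aa1, a cytosolic chaperone, with 1933, 2415 and 2696 CPM as the lowest, median and highest of the control zygotes and 311, 458 and 1102 CPM in the control 2C samples. Bms1, a GTPase of small ribosomal subunit assembly, had 1599, 1794 and 2231 CPM in control zygotes and 125, 277 and 572 CPM in control 2C samples. Dnmt1, the maintenance DNA methyltransferase, had 1317, 1847 and 2711 CPM in control zygotes and 204, 321 and 469 CPM in control 2C samples. In each of these genes every control 2C sample lay below every control zygote. Since these groups chose the members, the fall is given as a description with no test.

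The next most abundant were Aspm, which organises spindle poles (1350 ± 51.0 CPM in control zygotes, SD, n = 10), and Ssb, the La protein that binds the ends of RNA polymerase III transcripts (1311 ± 140 CPM). H1foo, the oocyte linker histone, stood at 665 ± 134 CPM. Bub1b, a spindle checkpoint kinase, stood at 588 ± 99.4 CPM, and Ncapg, a condensin subunit, at 524 ± 54.3 CPM. Mphosph8, a reader of methylated H3K9, followed with 490 ± 56.6 CPM, and Pak1ip1, a nucleolar factor of ribosome assembly, with 452 ± 32.1 CPM. Dlgap5, a spindle microtubule protein, had 429 ± 55.8 CPM and Prpf6, a scaffold of the U4/U6.U5 small nuclear ribonucleoprotein (snRNP), 392 ± 18.2 CPM. These 12 genes made up 44.3% of the summed level of all members, whose median was 123 CPM in control zygotes and 23.5 CPM in control 2C samples.

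**Figure D1:**
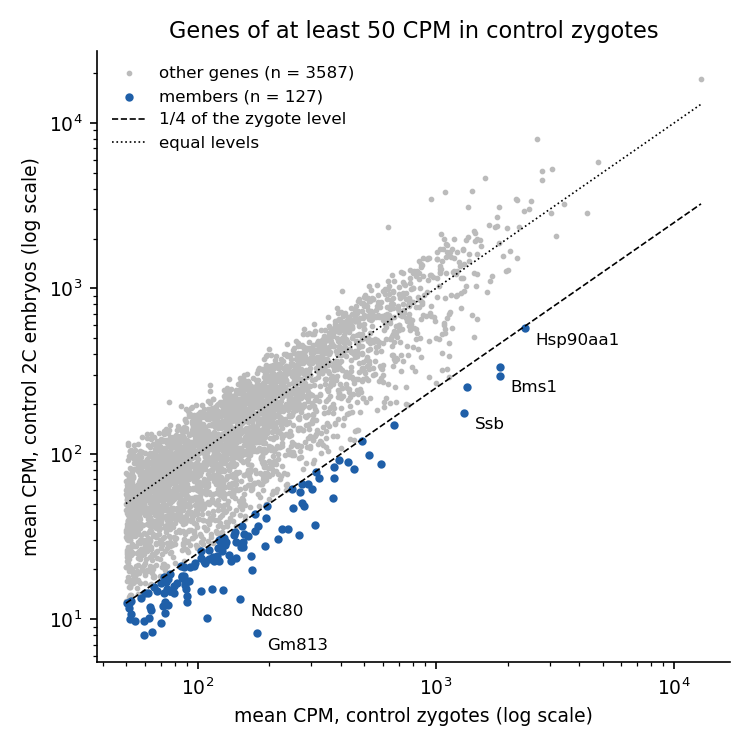
Mean CPM in control zygotes (x, n = 10) against control 2C samples (y, n = 9), both on log scales, for the genes of at least 50 CPM in control zygotes. The 127 members (blue) lie on or under the dashed line at 25% of the zygote level, while the 3587 other genes (grey) scatter around the dotted line of equal levels.

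The level left in control 2C samples ranged from 4.65 to 25.0% of the zygote level, with a median of 20.3%. Most members lay close to the limit: 120 had more than 12.5% left, 6 had 6.25 to 12.5% left, and Gm813, an uncharacterised gene, was alone below 6.25%. Gm813 had 120, 171 and 245 CPM as the lowest, median and highest of the control zygotes and 2.73, 7.35 and 15.8 CPM in the control 2C samples. The other 6 members with at most 12.5% left in controls were Ndc80 (8.82%), Rars (9.24%), Gnl2, Zcrb1, Gspt2 and Dnttip2. They encode a kinetochore protein, the arginyl-tRNA synthetase, a nucleolar GTPase, a protein of the minor spliceosome, a translation release factor and a nucleolar protein.

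The limits cut through continuous distributions. Just inside the level limit were Cluap1, Znrd1as and Ikbkap at 50.5, 51.3 and 52.1 CPM in control zygotes, and just outside were Rad54b, Fam162a and Ccdc86 at 49.6, 49.4 and 49.3 CPM. Just inside the ratio limit were Gcnt4, Nup93 and Sox8 with 25.0, 25.0 and 24.9% left, and just outside were Pms1, Spice1 and Scfd1 with 25.0, 25.1 and 25.3%.

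The members fell into several functional groups, counted by symbol patterns over all 3714 abundant genes. Of 152 genes of the cell cycle, spindle and kinetochore, 9 were members (5.92%): Bub1b, Dlgap5, the chromokinesin Kif22, Ndc80, Haus3, Ska1, Cenpq, Kif2c and Haus8. Of 56 translation factors and tRNA synthetases, 6 were members (10.7%), led by Gspt2 (312 ± 17.3 CPM in control zygotes), the elongation factor subunit Eef1d (125 ± 15.8 CPM) and Rars (110 ± 21.8 CPM). Of 83 genes in the list of oocyte genes, 8 were members (9.64%), one of which, Aspm, is a spindle gene of dividing cells in general. Besides Aspm and H1foo they included Fbxw28 and Fbxw15, from a large cluster of oocyte F-box genes, Zar1l, an RNA-binding protein of the oocyte, and Pabpn1l, an oocyte poly(A)-binding protein. The Fbxw genes resemble each other in sequence, so reads could be split between copies and their levels are uncertain.

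Members were also found in other groups. Ubiquitin and ubiquitin-like conjugation had 7 of 166 (4.22%), including Fbxw28, Fbxw15 and Rnf17, the last matched by its symbol alone. Zinc finger protein genes had 6 of 102 (5.88%), led by Zfp791, Zfp449 and Zfp61. RNA polymerases and general transcription factors had 4 of 51 (7.84%), among them Taf1a of the RNA polymerase I factor SL1 (371 ± 49.6 CPM) and the Mediator subunit Med17. Chaperones had 3 of 52 (5.77%): Hsp90aa1, Dnaja1 of the DnaJ family and Pfdn1 of prefoldin. Storage, deadenylation and decay of mRNA had 4 of 75 (5.33%), Zcchc10, Zar1l, the poly(A) polymerase Papolg and Pabpn1l. Zcchc10 was placed there by its symbol alone. Of 135 chromatin and histone genes 2 were members (1.48%, Dnmt1 and H1foo), and of 147 genes of vesicle transport, actin and the cytoskeleton 2 were (1.36%). DNA replication and repair had 2 of 66 (3.03%), of which Mcm3ap matched by its symbol and is a factor of mRNA export. Redox and intermediary metabolism had 2 of 35 (5.71%), and mitochondrial ribosome and import 1 of 13 (7.69%). Genes with only a provisional name had 3 of 100 (3.00%), and the respiratory chain without complex I none of 9.

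Many members were nucleolar or splicing factors. Of 76 abundant genes of ribosome biogenesis and RNA polymerase I, 20 were members (26.3%), among them Bms1, Pak1ip1, Taf1a, Dnttip2, Nol12, Ltv1, Gnl2, Nat10, Pwp2 and Taf1b. Of 86 genes of pre-mRNA splicing and 3′ end processing, 21 were members (24.4%), among them Prpf6, Snrnp70 of the U1 snRNP (303 ± 41.2 CPM in control zygotes), Zcrb1, Sf3a3, Eftud2, Cpsf3 and Ints9. These 2 lists were drawn up after the members' names had been seen, so their counts describe the members and support nothing. In the narrower list of core spliceosome and SR proteins, whose pattern was written without these names, 6 of 68 were members (8.82%). No list covered 35 members, including Ssb, Ncapg, the nucleoporins Nup107 and Nup93, the telomere protein Terf1 and Mettl14 of the m6A methyltransferase.

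The members were shorter than other abundant genes, though not shorter than genes at large. Their median exon length in the count table was 2403 bases (interquartile range 1662 to 3197), against 3727 bases (2496 to 5490) for the other abundant genes and 2165 bases for all genes of the table. The difference was present in every band of zygote level: 2279 against 3344 bases at 50 to 100 CPM, 2166 against 3680 at 100 to 200 CPM, 2865 against 4203 at 200 to 400 CPM, and 2964 against 4490 above 400 CPM. CPM is not divided by length, so a short gene needs more molecules to reach 50 CPM. When the same limits were applied to length-corrected levels (TPM), 154 genes were chosen, 117 of them members (76% of the 154 and 92.1% of the 127), with a median exon length of 1962 against 2945 bases for the rest. The shortest members were Pdcd5, Gm813 and Zcrb1 at 642, 702 and 826 bases, and the longest were Aspm, Mcm3ap and Dnmt1 at 9866, 6383 and 6325 bases.

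The 3′ UTR differed more than the coding region. In 1 coding transcript a gene from GENCODE M21 (GRCm38), found for 127 of 127 members and 3539 of 3587 other abundant genes, the median 3′ UTR was 341 bases (181 to 920) in members and 1260 bases (584 to 2376) in the others, against 820 in all genes. The median coding length was 1506 bases in members, 1788 in the others and 1209 in all genes. The long Aspm, Mcm3ap and Dnmt1 messages had 3′ UTRs of only 341, 117 and 312 bases, those of Zar1l, Zcrb1 and Prpf6 were 14, 49 and 86 bases, and the transcript of Taf1a had no annotated 3′ UTR. The longest 3′ UTRs were those of Naa16 (10465 bases), Gmps (5845 bases) and Dnaja1 (4203 bases).

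When the abundant genes were divided into 5 bins by 3′ UTR length, members made up 9.95% of the shortest bin (73 of 734 genes, up to 442 bases), 3.13, 2.32 and 0.955% of the following bins, and 0.956% of the longest (7 of 732). By coding length the share was 4.08, 4.50, 3.80 and 3.97% in the first 4 bins and 0.956% in the longest. With both lengths split at their medians (1226 bases of 3′ UTR and 1778 coding bases), a short 3′ UTR went with 6.55% members for short and 4.82% for long coding regions, and a long 3′ UTR with 1.61% and 0.832%. Over all abundant genes in the Kdm5b-injected embryos, which took no part in choosing the members, the median log2 change from zygote to 2C was −0.63 in the bin of the shortest 3′ UTRs, −0.25, 0.01 and 0.13 in the following bins and 0.24 in the longest. These are descriptions across genes, which are not independent of each other.

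**Figure D2:**
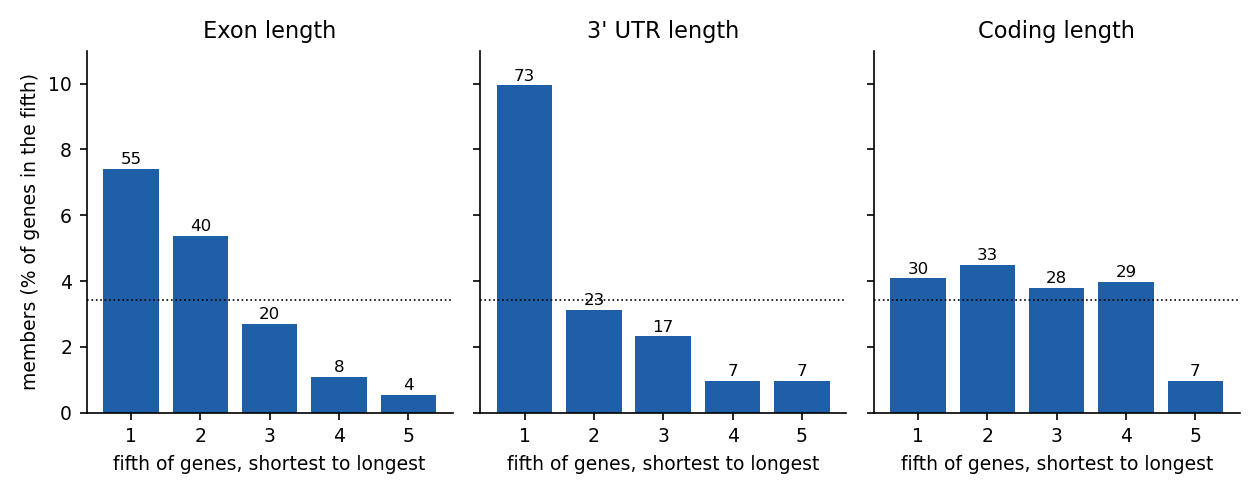
Share of members (y, % of the genes in each bin) among abundant genes divided into 5 bins (x, shortest to longest) by exon, 3′ UTR and coding length, with the number of members above each bar and the share over all abundant genes (3.42%) as a dotted line. The share falls from 9.95 to 0.956% with 3′ UTR length and drops only in the longest bin of coding length.

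Short sequence elements were counted in the annotated 3′ UTR, where a longer UTR has more room for a match. On the transcript strand TTTTAT was present in 40.9% of members, 66.1% of other abundant genes and 48.8% of all genes. The Pumilio motif TGTANATA was present in 20.5, 32.5 and 22.0%, and the AU-rich TATTTAT in 18.1, 34.5 and 25.7%. In the last 100 bases of the 3′ UTR, TTTTAT or TTTTAAT was present in 23.6% of members (30 of 127). The share was 22.5% in other abundant genes and 16.8% in all genes. The polyadenylation signal AATAAA lay within the last 60 bases in 48.8% of members, 65.8% of other abundant genes and 60.2% of all genes. Both windows end at the start of the 3′ UTR, so they are shorter in short UTRs such as those of Zcrb1 and Zar1l. The difference in UTR length is therefore not fully removed. A match says only that the letters are there.

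The 6 most abundant members with a cytoplasmic polyadenylation type motif in these last 100 bases are given as 30 bases of the GENCODE M21 transcript, 5′ to 3′, with the motif in capitals, because they place the element beside the annotated end of the leading messages. On GRCm38 the windows lie at chr9:20907239-20907268 (minus strand) for Dnmt1, chr6:115950157-115950186 (plus) for H1foo, chr2:118641553-118641582 (plus) for Bub1b, chr5:45700492-45700521 (plus) for Ncapg, chr13:41012918-41012947 (plus) for Pak1ip1 and chr2:181655631-181655660 (plus) for Prpf6. All are in the 3′ UTR of the last exon, and the motif starts 48, 63, 27, 43, 86 and 12 bases from the annotated end, in that order.
Dnmt1: gacttgatgtagTTTTATatgttgtaatat
H1foo: cgattctgaagcTTTTATtgtctaataagc
Bub1b: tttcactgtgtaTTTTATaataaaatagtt
Ncapg: ctaacatgaaatTTTTATtgtgcttctgct
Pak1ip1: tggcagatggcaTTTTATtatagattgtaa
Prpf6: cttttactcattaaaggtTTTTATagagtt

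The stage difference of these messages was tested in samples that had not chosen them, Kdm5b 2C samples (n = 6) against Kdm5b zygotes (n = 10). These 2C embryos were injected only after division, so the difference can include loss from before that injection. All 127 members were lower in Kdm5b 2C samples at an adjusted p under 0.05 and a log2 change below −1 (edgeR quasi-likelihood test, Benjamini-Hochberg adjustment over 12390 genes), where 16% of all genes tested were called lower and 10.5% higher. Their median log2 change was −2.35, against 0.01 over all genes tested and −0.00 over the other abundant genes, and the largest adjusted p among them was 1.8e-06. Less of a message per embryo and more of all other RNA cannot be told apart in CPM, since total RNA per embryo was not measured.

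The steepest falls in Kdm5b embryos were those of Gm813, from 187 ± 38.8 CPM in zygotes to 8.67 ± 2.86 CPM in 2C samples (log2 change −4.29 ± 0.20 SE, adjusted p = 3.9e-14, edgeR), and of Srfbp1, a nucleolar SRF-binding protein, from 65.2 ± 5.88 to 4.96 ± 2.94 CPM (−3.57 ± 0.31). Ttc4, a co-chaperone of Hsp90, fell from 60.3 ± 8.12 to 4.89 ± 2.46 CPM. Rars, the splicing-associated Fam50a, Uimc1 (the ubiquitin reader RAP80), Ssb, Ndc80, Zcrb1 and the snoRNP assembly factor Znhit6 changed by −3.29 to −3.12 on the log2 scale.

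The shallowest falls were those of Ikbkap, the Elongator scaffold, and Naa16, a subunit of an N-terminal acetyltransferase, both at −1.62 on the log2 scale (SE 0.18 and 0.12). Vrk1, a nuclear kinase, changed by −1.70 ± 0.18, St3gal5, a ganglioside synthase, by −1.75 ± 0.24 and the ciliary gene Cluap1 by −1.77 ± 0.15. These 5 genes, H1foo and the transcription factor Irf1 were the 7 members that kept over 25% of the zygote level in Kdm5b embryos, 29.9% at most. Among the other 120 members, 1 kept under 6.25%, 15 kept 6.25 to 12.5% and 104 kept 12.5 to 25%.

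**Figure D3:**
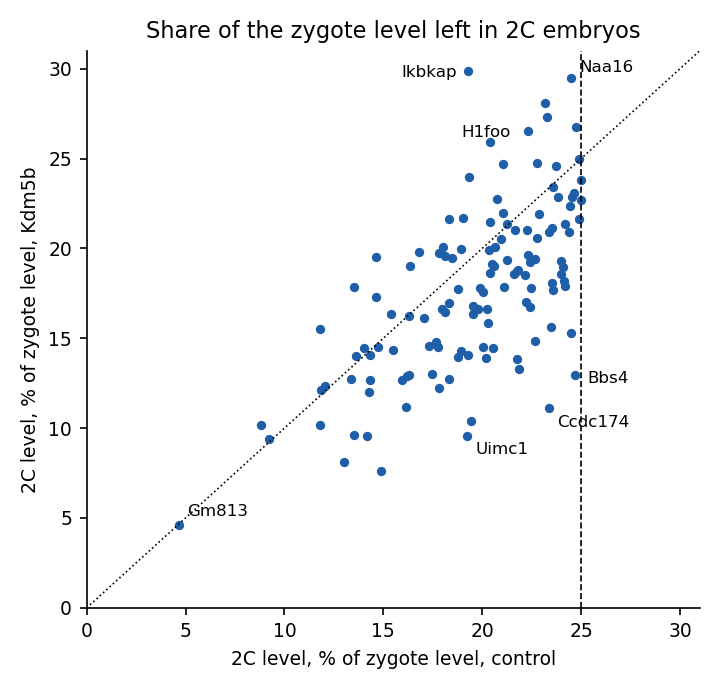
Level left in 2C samples as a percentage of the zygote level, in control embryos (x) and Kdm5b embryos (y), for each of the 127 members, with the dotted line of equal shares and the dashed line at the 25% limit, which was applied to controls only. Gm813 lies at the lower left on the line, Ccdc174, Bbs4 and Uimc1 lie well below it, and Ikbkap, Naa16 and H1foo lie above it.

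In zygotes, Kdm5b injection changed no member past both thresholds (0 of 127 with edgeR, 0 with DESeq2). Over all 11933 genes tested, 0% were called lower and 0.00838% higher (1 gene). At an unadjusted p under 0.05, 36 members were lower and 1 was higher, against 5.6% of all genes lower and 4.74% higher, and 9.28% and 6.47% of the other abundant genes. The median log2 difference of the members was −0.10, against 0.01 for all genes tested and 0.00 for the other abundant genes, and 106 of the 127 were negative (83.5%, against 47.7% of the other abundant genes). The control zygotes of this comparison are the same samples that chose the members for a high level, so the comparison is not independent of that choice. In 1 fit over all 35 samples, 6 members instead of 36 were lower at an unadjusted p under 0.05, where 1.65% of all genes were. That fit gave each gene 1 spread for both stages, and members varied more in 2C samples, so it overstates the error in zygotes. The members' median difference was −0.11 in that fit.

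The differences in zygotes were small. The 95% interval lay within ±1 on the log2 scale for all 127 members and within ±0.5 for 121. Mcm3ap, a factor of mRNA export from the nucleus, had the smallest p. Its levels were 242, 268 and 332 CPM as the lowest, median and highest of the control zygotes and 109, 204 and 260 CPM in Kdm5b zygotes, with 2 of 10 Kdm5b zygotes, at 109 and 116 CPM, well under the rest, and the groups overlapping. The log2 difference was −0.52 ± 0.11 (adjusted p = 0.031, edgeR), the only member past the adjusted p alone, at which 0.117% of all genes tested were lower. It was followed by Spata5, an ATPase of ribosome maturation (−0.35 ± 0.08, adjusted p = 0.057, edgeR), and Gas8, an axonemal protein (−0.31 ± 0.08, adjusted p = 0.11). With DESeq2 the adjusted p was 0.011 for Mcm3ap, 0.0050 for Spata5 and 0.026 for Gas8. In the edgeR fit over all 35 samples, whose spread is shared with the 2C samples, the adjusted p was 1 for each.

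In 2C embryos, again no member passed both thresholds with edgeR (0 of 127). DESeq2 called 2 lower, Ccdc174 and Bbs4, where 7 of 19501 genes were called lower and 1 higher. With edgeR, 0.00817% of 12244 genes tested were called lower (1 gene) and 0% higher. At an unadjusted p under 0.05, 12 members were lower and none higher, 9.45% of the members, where 4.91% of all genes were lower and 4.5% higher, and 9.70% and 10.6% of the other abundant genes. In the fit over all 35 samples 32 members were lower at that p, where 9.67% of all genes were. There the spread was shared with the zygotes, which varied less, so that fit understates the error in 2C samples. In the fit of the 2C samples alone, the median log2 difference was −0.22, against −0.00 over all genes tested and 0.01 over the other abundant genes. The difference was negative for 94 of 127 members. The comparison shares its control samples with the choice of members. It was also less precise than that in zygotes, with a median standard error of 0.28 against 0.08, and the 95% interval lay within ±1 for 89 members and within ±0.5 for 5.

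The lowest p in 2C embryos belonged to Bbs4, Ccdc174 and Uimc1. Bbs4, of the BBSome that sorts ciliary cargo, had 38.3, 68.2 and 122 CPM as the lowest, median and highest of the control samples. In the Kdm5b samples it had 33.6, 54.5, 37.4, 22.1, 36.7 and 26.6 CPM, and the groups overlapped (log2 difference −1.09 ± 0.26, adjusted p = 0.16, edgeR). Ccdc174, a nuclear protein linked to the exon junction complex, had 18.8, 23.1 and 48.6 CPM in control samples and 7.15, 13.2 and 18.9 CPM in Kdm5b samples, where the highest Kdm5b sample just exceeded the lowest control (−1.19 ± 0.29, adjusted p = 0.17, edgeR). Uimc1 had 7.74, 12.6 and 23.2 CPM in control samples and 2.75, 6.58 and 9.21 CPM in Kdm5b samples, again with a small overlap (−1.15 ± 0.30, adjusted p = 0.23, edgeR). In zygotes the same genes differed by −0.21, −0.17 and −0.21.

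**Figure D4:**
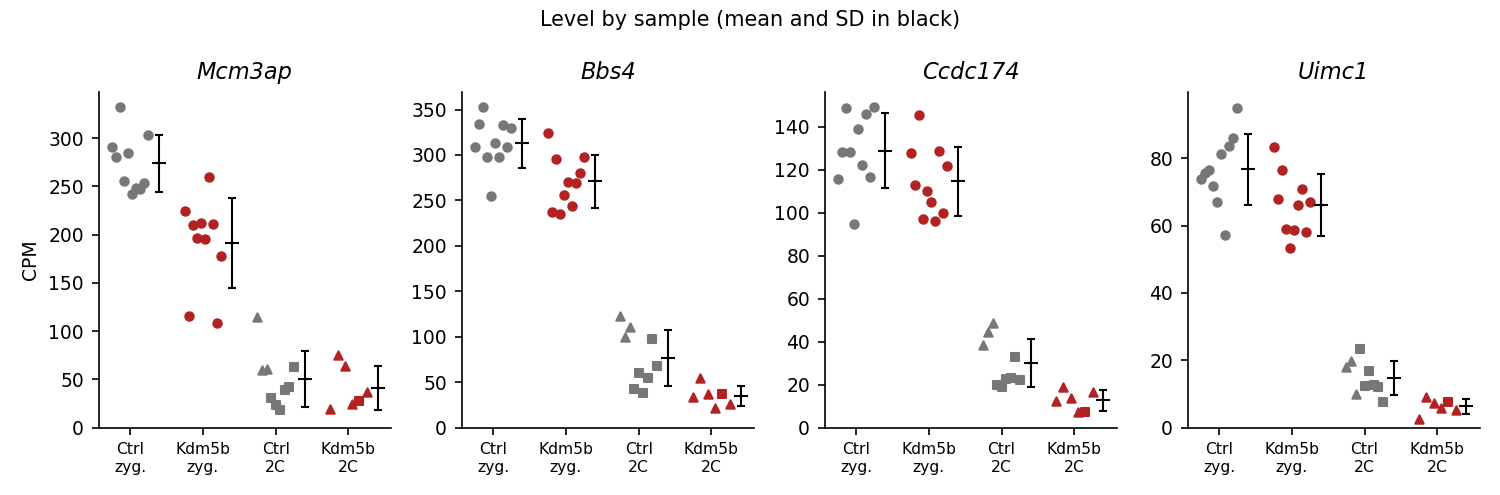
CPM (y, linear, from 0) of Mcm3ap, Bbs4, Ccdc174 and Uimc1 in every sample of the 4 groups, with the group mean and SD in black. Triangles are 2C libraries with index numbers 81 to 88 and squares those with 89 to 95, and for Bbs4 and Ccdc174 the 3 control triangles are among the highest 2C values, above all 6 Kdm5b samples.

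Clearance, taken as the difference between zygote and 2C groups, was compared between injections by the interaction of stage and injection over all 35 samples. The Kdm5b zygotes are not an earlier state of the Kdm5b 2C embryos, which were injected only after they had divided. The share left in Kdm5b embryos therefore sets separately injected groups side by side. The fall in controls is what chose the members, so neither the interaction nor the share left is independent of that choice. No member passed both thresholds with edgeR (0 of 127). DESeq2 called 1, Ccdc174, where 4 of 20947 genes were called more negative in Kdm5b embryos and 1 more positive. With edgeR, 0.00726% of 13778 genes tested were called more negative and 0.00726% more positive. At an unadjusted p under 0.05, 12 members had a more negative and 2 a more positive change, where 5.33% of all genes were more negative and 3.77% more positive, and 8.64% and 8.39% of the other abundant genes. The median difference of the members was −0.09 (−0.01 over all genes tested) and that of single members ranged from −1.03 to 0.66. The 95% interval lay within ±1 for 108 members and within ±0.5 for 13. Smaller differences in clearance were therefore not detectable for most members at this spread. The fit gave each gene 1 spread for both stages, although members varied more in 2C samples than in zygotes. Its median standard error, 0.25, was below the 0.28 of the 2C comparison alone. The intervals of the interaction are therefore likely too narrow, and its p-values too small. The smallest p belonged to Ccdc174 (−1.03 ± 0.26, adjusted p = 0.11, edgeR), Uimc1 (−0.94 ± 0.24, adjusted p = 0.12) and Bbs4 (−0.89 ± 0.24, adjusted p = 0.14). In terms of what was left, Ccdc174 kept 23.4% in controls and 11.1% in Kdm5b embryos, Uimc1 19.2% and 9.59%, and Bbs4 24.7% and 13.0%, while Gm813 kept 4.65% and 4.62%. The share left was lower in Kdm5b embryos for 91 of 127 members, with medians of 20.3% and 17.8%.

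Among the functional groups with 3 or more members the median interaction ranged from −0.37 for the 3 genes with a provisional name to 0.07 for the 6 of translation. It was −0.07 for the 20 of ribosome biogenesis, −0.13 for the 21 of splicing and 3′ end processing, −0.16 for the 9 of the cell cycle group and −0.21 for the 7 of ubiquitin conjugation. Dnmt1 and H1foo, the 2 chromatin members, had a median of 0.24. The median standard error of a single member was 0.25.

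Summed over the members, the messages took 2.35 to 3.19% of all gene counts in control zygotes (2.77 ± 0.231%, SD, n = 10) and 2.33 to 2.85% in Kdm5b zygotes (2.57 ± 0.205%, n = 10). In 2C samples they took 0.360 to 0.828% in controls (0.533 ± 0.172%, n = 9) and 0.365 to 0.597% after Kdm5b (0.440 ± 0.0926%, n = 6). The ratio of the zygote mean to the 2C mean was 5.20 in controls and 5.85 in Kdm5b embryos. The zygote groups overlapped, and so did the 2C groups.

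The control 2C samples differed among themselves along the numbers of their library indexes, which the sample descriptions give. In the 3 control libraries with index numbers 81 to 88 the members took 0.828, 0.796 and 0.600% of counts, and in the 6 with numbers 89 to 95 they took 0.360 to 0.485%. Across the members, 114 of 127 had a higher mean in the former, with a median ratio of 1.53, against a median ratio of 1.03 for the other abundant genes. In 111 of 127 members the highest control 2C sample was one of these 3. Of the 6 Kdm5b 2C libraries, 5 had index numbers 81 to 88 (0.384 to 0.597%) and 1 had a number from 89 to 95 (0.365%). Against the 3 control libraries of the same index numbers, the members' median ratio in the 5 Kdm5b libraries was 0.677, and against the other 6 control libraries it was 1.01.

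With the set of 8 consecutive index numbers as a covariate, the median log2 difference of the members between Kdm5b and control 2C samples was −0.46. At an unadjusted p under 0.05, 42 members were lower, where 8.4% of all genes were, and 5 members were called lower where 0.384% of all genes were: Ccdc174 (−1.64 ± 0.25, adjusted p = 0.0055, edgeR), Bbs4 (−1.32 ± 0.25), Mphosph8 (−1.06 ± 0.19), Prpf6 (−1.07 ± 0.26) and Gas8 (−1.10 ± 0.27). In the interaction with the same covariate, added after seeing the data, 43 members had a more negative change at an unadjusted p under 0.05, where 9.05% of all genes did. Within index numbers 81 to 88 alone (3 control, 5 Kdm5b, an alternative added after seeing the data), 6 members were called lower. In that fit 66 of 12426 genes tested were called lower, and the members' median was −0.53. Only 1 Kdm5b library lies outside that set, and the labels do not name these sets as a batch. Their part in the result was not tested.

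**Figure D5:**
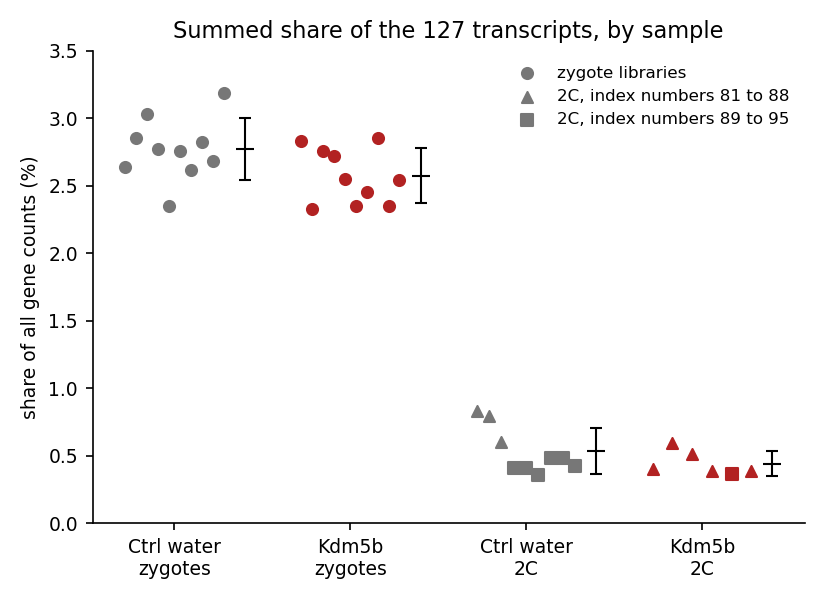
Summed share of the 127 members in all gene counts (y, %) for each sample of the 4 groups, with the group mean and SD in black, triangles for 2C libraries with index numbers 81 to 88 and squares for 89 to 95. Zygotes lie between 2.33 and 3.19%, 2C samples between 0.360 and 0.828%, and the 3 control triangles are the highest 2C values.

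Variation between samples was larger for members than for other abundant genes. The median coefficient of variation (CV, SD as a percentage of the mean) was 13.4% for members and 9.83% for the others in control zygotes, and 13.2% and 9.63% in Kdm5b zygotes. In 2C samples it was 40.0% and 20.7% in controls and 31.8% and 17.0% after Kdm5b. In zygotes the difference was present in every band of level, for example 10.7% against 7.29% above 400 CPM in controls. Against all other genes of the same control 2C level, members had a CV of 43.2% and the others 44.0% at 5 to 20 CPM, 37.8% and 29.2% at 20 to 50 CPM, and 41.7% and 20.5% at 50 to 600 CPM. The weak members had CVs close to those of other weak genes, and in these control 2C bands the CV of members did not fall with level as it did for other genes. These bands pool control libraries of both sets of index numbers. The members' summed share of counts was 0.533 ± 0.172% (SD) over all 9 control 2C samples. It was 0.429 ± 0.0472% within the 6 with the higher index numbers and 0.741 ± 0.123% within the 3 with the lower ones. How far the sets account for the members' CVs in control 2C samples was not tested. The smallest count of a member was 432 in any zygote and 2 in any 2C sample.

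Single members differed widely in their constancy among Kdm5b zygotes. Dlgap5, Aspm and Snrnp70 had the lowest CVs there, 3.25, 3.79 and 5.75%, and St3gal5, Haus3 and Zcrb1 the highest, 35.5, 31.8 and 25.8%. In control zygotes Dlgap5 and Snrnp70 had CVs of 13.0 and 13.6%, close to the members' median, and Aspm had one of 3.78%. In Kdm5b 2C samples Dlgap5, Aspm and Snrnp70 had CVs of 21.7, 41.3 and 26.7%.

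The machinery that shortens, uridylates and decaps messages was read in the same fits, from a list of 39 genes of which 37 were tested. From Kdm5b zygotes to Kdm5b 2C samples 6 were called lower (Cnot10, Zcchc6, Pabpn1l, Edc4, Cpeb1 and Patl2) and 2 higher (Pan3 and Zcchc11), with a median log2 change of −0.04. Over all genes tested 16% were called lower and 10.5% higher, so the share called lower was near that of all genes. Pabpn1l, itself a member, went from 107 ± 24.8 to 13.7 ± 8.27 CPM. Cpeb1, which binds the cytoplasmic polyadenylation element, fell from 124 ± 28.4 to 43.0 ± 9.16 CPM (log2 change −1.39 ± 0.16), and Pan3, of the PAN2-PAN3 deadenylase, rose from 410 ± 34.5 to 846 ± 112 CPM (1.18 ± 0.09). Btg4, the adaptor that brings the CCR4-NOT deadenylase to maternal messages, stood at 2411 ± 199 and 2899 ± 320 CPM (0.40 ± 0.08), below the fold threshold. Between Kdm5b and control none of the tested genes was called in zygotes, in 2C samples or in the interaction (edgeR). At an unadjusted p under 0.05 there were 4, 2 and 2, respectively. All 4 in zygotes were lower, where 5.6% of all genes were lower and 4.74% higher. Over all genes 4.91% were lower and 4.5% higher in 2C samples, and 5.33% and 3.77% in the interaction.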

How the data were processed

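RNA-seq libraries of 20 zygotes and 15 2C samples were read as the gene-level counts the authors deposited. According to the submitters' processing notes and the file header, reads were trimmed with fastp 0.21.0, aligned with STAR 2.7.3a to GRCm38/mm10 and counted per RefSeq gene with featureCounts 1.5.1 (paired, strand-specific, both ends mapped). A deposited table of repeat quantities was not used here. The Kdm5b row was removed, as in the study's methods.

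CPM was count over column sum without Kdm5b. Fits used edgeR 4.0.16 (R 4.3.3): filterByExpr with a minimum count of 10, TMM normalisation, quasi-likelihood tests, Benjamini-Hochberg adjustment over all genes tested, with calls made past a 0.05 adjusted p and a log2 change of more than 1 either way. Each comparison used only its groups, and the interaction used all 4. DESeq2 1.42.0 was an alternative. The script was tested on simulated data. No group held samples within sampling noise of each other (lowest chi-square per degree of freedom 10.1).

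The members and all lists were chosen with earlier results of these data known. Named genes are the 12 most abundant, the 10 steepest and 5 shallowest falls in Kdm5b embryos, the 3 smallest p (or all at adjusted p under 0.05) of each Kdm5b comparison, neighbours of each limit, the 3 most abundant of each family with 3 or more members, and extremes of length and CV. Others named as examples were chosen after their values were seen. Families were matched by symbol. The labels call samples biological replicates, while litters are not given.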

Additional observations from a re-analysis of the deposited data

Results flagged for a closer look

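The summed share of the members and the 18 members named for abundance or for their Kdm5b comparisons were screened in each of the 4 groups (76 screens) for a single sample whose gap to its neighbour was large for the range of its group, a pattern that chance gives in about 1 screen in 20. There were 3. Ssb was at 194 CPM in Kdm5b 2C replicate 2, with the next sample at 125 CPM. Pak1ip1 was at 512 CPM in Kdm5b zygote replicate 3, with the next at 452 CPM. Mcm3ap was at 114 CPM in control 2C replicate 1, with the next at 62.6 CPM. Replicate 1 of the control 2C group held the highest value of its group in 59 of 127 members and replicate 2 of the Kdm5b 2C group in 73 of 127.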

How the results depend on the processing

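All 127 members stayed called lower in Kdm5b 2C against Kdm5b zygotes under every alternative run, including single intact 2C embryos only and each Kdm5b 2C sample left out (127 to 127, median log2 change −2.45 to −2.28). For Kdm5b against control zygotes, 1 member (Mcm3ap) was lower at the adjusted p alone and 0 under the other alternatives. For Kdm5b against control 2C, the number called lower was 0 with each sample left out (0 to 0, median −0.32 to −0.08). With DESeq2 it was 2, where 7 of 19501 genes were called lower. With all 35 samples in 1 fit, whose spread is shared with the zygotes, it was 4, where 55 of 13778 genes were. With the index set as a covariate it was 5, where 47 of 12244 genes were. Within index numbers 81 to 88 it was 6, where 66 of 12426 genes were. For the interaction the number called lower was 1 with DESeq2 (Ccdc174), where 4 of 20947 genes were. With single intact 2C embryos only it was 2, where 10 of 13844 genes were. The index set as a covariate (added after seeing the data) gave 4, where 60 of 13778 genes were. With 1 2C sample left out it was 0 to 3. The 3 calls (Ccdc174, Bbs4 and Uimc1) came without Kdm5b 2C replicate 2, where 12 of 14060 genes were called lower. Without control 2C replicate 1 the median interaction turned from −0.09 to 0.013 (range over samples left out −0.18 to 0.013). The cause was not tested. Replicate numbers do not pair samples here (correlations of deviations −0.185 to 0.102). With a replicate block the interaction called 1 member (Ccdc174) lower, where 3 of 13778 genes were, and the block changed no other member's call. The rule gave 109 genes after TMM scaling, 112 with single intact control 2C embryos, 150 by medians (122 of them members), 154 by TPM, 78 from 100 CPM and 7 at 12.5% left.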
